A study of Mus musculus with 15 samples.

Results

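In a strand-specific library every annotated gene has a second read count, that of the RNA which runs antisense to it. These opposite-strand counts are described here for mouse testes with and without a knockout of a piRNA-producing locus on chromosome 18. They were deposited for the 9 RNA-seq libraries among the 15 libraries of the series, and they were taken by the strand setting recorded in the headers, not by any measured value. Each file lists the same 50051 features, which are 49585 genes and 466 piRNA precursors, and 30693 of them held at least 1 opposite-strand fragment over the 9 libraries. A filter on low counts kept 12303 features for testing.

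The testes came from B6D2F1 mice, a hybrid strain, at postnatal day 28. The groups were 3 wild-type libraries (labelled WT control), 3 heterozygous libraries (HT control) and 3 homozygous libraries (KO) for the chromosome 18 pachytene piRNA locus. The heterozygous and homozygous libraries are called carriers below, 6 in all, and both genotypes share the same wild-type controls. Alleles at other loci of this hybrid strain were not compared. A background difference between wild type and carriers therefore cannot be told apart from the locus. Whether the 3 libraries of a genotype are 3 animals is not stated in the labels, and p-values therefore rest on the spread among libraries, which may be technical. The other 6 libraries of the series are small RNA and were not used here.

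Mammalian genes are often overlapped by a transcript of the other strand, a natural antisense transcript, and divergent promoters send RNA away from a gene on the other strand. The testis transcribes an unusually large part of the genome, and many of its long noncoding RNAs lie antisense to coding genes. Pachytene piRNAs are small RNAs cut from long single-stranded precursors in meiotic and haploid germ cells, where PIWI proteins bind them and recognise other RNAs by base pairing, so the strand of a transcript decides which piRNAs can pair with it.

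The opposite-strand counts summed to between 2316563 and 4037905 fragments a library, against 21684791 to 41513634 on the strand that the kit reports, called the kit strand below. No pair of libraries in a group agreed within sampling noise, since the chi-square per degree of freedom over the tested features ran from 1.92 to 16.4. The labels were checked on the minus-strand precursor of the locus. Its kit-strand level ran from 0.115 to 0.21 CPM in homozygotes, from 133 to 205 in heterozygotes and from 255 to 296 in wild type. CPM are counts scaled to a common size of each library's own counts on that strand, so 1 opposite-strand CPM stands for fewer fragments than 1 kit-strand CPM.

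The opposite strand's share of all fragments was slightly smaller in the carriers, a difference that did not hold in every setting tried. The wild-type libraries held 9.07, 9.57 and 9.65%, the heterozygous libraries 8.86, 9.03 and 8.62%, and the homozygous libraries 8.72, 8.10 and 8.97%. All 6 carriers lay under all 3 wild-type libraries, and the means of 9.43 ± 0.314% (SD, n = 3) and 8.72 ± 0.340% (SD, n = 6) differed by -0.715 percentage points (exact permutation test, two-sided, p = 0.0119, the smallest that 84 assignments allow). The difference missed the threshold without wild-type library 2 (-0.646 points, exact permutation p = 0.0714) or wild-type library 3 (-0.604 points, exact permutation p = 0.107). It also rested on a few features: Ccdc107, Gm42418 and Lars2 held 5.36 to 10.4% of the opposite-strand fragments in the wild-type libraries and 2.32 to 6.61% in the carriers. Without these 3, left out after their values were seen, the shares were 8.83 ± 0.541% in wild type and 8.37 ± 0.274% in carriers (SD, n = 3 and 6), a difference of -0.459 points, and the groups overlapped (exact permutation test, two-sided, p = 0.143). The test was repeated without features that overlap an annotated feature of the other strand. The shares were 1.64 ± 0.154% in wild type and 1.63 ± 0.142% in carriers (SD, n = 3 and 6), and the groups overlapped (exact permutation test, two-sided, p = 0.940).

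Genes with no annotated neighbour on the other strand give the antisense level that has no annotated source. Over 1063 genes that had at least 1000 kit-strand fragments in every library and no other-strand feature within 10 kb, the median share was 0.374%, with a range from 0.0637% at the 5th to 5.39% at the 95th percentile. By library this median ran from 0.347 to 0.404% in wild type and from 0.342 to 0.396% in carriers, and the groups overlapped (exact permutation test, two-sided, p = 0.964). Of these genes 26, or 2.45%, had a share of 10% or more.

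**Figure D1:**
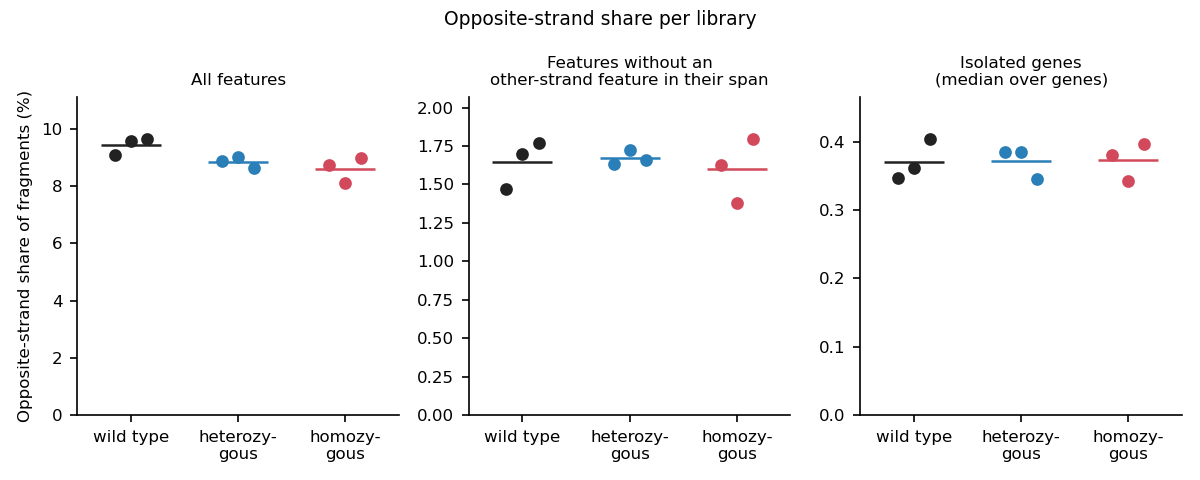
Opposite-strand share of the fragments in each library, in percent, with 3 libraries for each genotype as points and the group mean as a line. The panels show all features, features that no other-strand feature overlaps, and the median over isolated genes. Only in the first panel do the wild-type libraries (9.07 to 9.65%) lie above all carriers (8.10 to 9.03%).

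Antisense RNA differed between wild type and carriers at many positions. Of the 12303 tested features, 1966 passed at an adjusted p under 0.05, which is 16% of them, with 825 higher in carriers (6.71%) and 1141 lower (9.27%). Every adjusted p is from edgeR's quasi-likelihood test with Benjamini-Hochberg adjustment over all tested features, and every fold change is the mean of the carrier genotypes against wild type on the log2 scale unless stated. The median log2 fold change over all tested features was 0.018. The split between higher and lower calls depended on scaling: scaled by the kit-strand library sizes it was 565 higher and 1460 lower, and without scaling it was 1238 higher and 739 lower. On the kit strand 6377 of 20782 features passed, or 30.7%, with 2939 higher (14.1%) and 3438 lower (16.5%). Bulk testis cannot tell fewer cells of a type from less RNA per cell, and this holds for every level below.

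The carrier genotypes gave similar counts of calls against the shared wild-type libraries. In heterozygotes 1250 features passed (10.2%), 507 higher (4.12%) and 743 lower (6.04%). In homozygotes 1193 passed (9.7%), 515 higher (4.19%) and 678 lower (5.51%). Between homozygotes and heterozygotes 0 features passed with edgeR (0%) and 0 with DESeq2, while 472 had an unadjusted p under 0.05. Single libraries moved these counts: without wild-type library 1 the carrier calls numbered 817, and without wild-type library 2 they numbered 1278. Without homozygous library 2 the homozygous calls numbered 338, and without heterozygous library 3 the heterozygous calls numbered 521.

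Most antisense fragments lay in features that another gene overlaps. Features that share at least 1 base with an annotated feature of the other strand, called overlapped, made up 7506 of the tested features and held 89.8% of their opposite-strand fragments. Of them 590 were higher and 828 lower in carriers, or 18.9%. Features with an other-strand neighbour within 10 kb but no overlap numbered 2549, with 104 higher and 156 lower (10.2%), and isolated features numbered 2248, with 131 higher and 157 lower (12.8%). Where at least 10% of a near or isolated feature's own fragments ran antisense, the feature was taken as a candidate for antisense RNA that the annotation does not name. There were 1866 such candidates, of which 148 were higher and 114 lower (14.0%). Among the 328 candidates with a share of at least 90%, 41 were higher and 14 lower (16.8%), beside 16% that passed over all tested features, 6.71% higher and 9.27% lower. The median log2 fold change of these 328 was 0.13, beside 0.018 over all tested features. Splits of this kind depend on scaling, as given above, and this one was not refitted under other scalings.

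By annotated type, 1343 of 9107 protein-coding genes passed (14.7%, 536 higher, 807 lower). Of 1405 genes annotated as antisense 306 passed (21.8%, 122 higher, 184 lower), and of 697 lincRNA genes 102 (14.6%, 68 higher, 34 lower). Over all features tested 16% passed, 6.71% higher and 9.27% lower. On chromosome X 28 features were higher and 5 lower of 162 tested (20.4%), and on the kit strand of that chromosome 244 were higher and 36 lower of 902 (31.0%). Over all features tested on the kit strand 30.7% passed, 14.1% higher and 16.5% lower. For 3782 features more than 50% of their own fragments ran antisense to them. Of these 3000 were overlapped, where the fragments can be RNA of the annotated feature across from them. Genes annotated as antisense had a median antisense share of 91.4%.

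The features described next passed the test, changed at least 2-fold, had 3 wild-type libraries wholly on one side of 6 carriers and reached 1 opposite-strand CPM. Of the tested features 493 met this (4.01%), 191 higher (1.55%) and 302 lower (2.45%), and the 8 with the lowest adjusted p in each direction were taken from overlapped features and again from candidates without an annotated partner. Over all tested features 2406 had groups that did not overlap (19.6%). Since non-overlap was part of the choice, it is given as a description. All 32 kept their direction and call in each of the 16 alternative settings. These settings refit the same libraries and the 32 were chosen for a low adjusted p, so this too is a description.

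Among overlapped features that rose, some followed an annotated partner. Antisense RNA of Slc39a8, which encodes a zinc and manganese transporter (chr3:135825279-135888572, plus strand), stood at 172, 215 and 232 opposite-strand CPM in wild type, and at 436, 475 and 534 (lowest, median and highest) in carriers. All carriers lay well above wild type, a log2 fold change of 1.21 (SE 0.13, adjusted p = 1.82e-05). The noncoding 4933401H06Rik lies antisense within Slc39a8, and its kit-strand level rose by 1.11 (adjusted p = 0.000128), from 14.6, 19.9 and 21.5 CPM in wild type to 36.8, 40.5 and 43.2 in carriers. The kit strand of Slc39a8 itself rose less, by 0.66.

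A730049H05Rik showed the reverse arrangement, since the whole of it lies antisense to Adamts9, a secreted metalloproteinase gene. Its opposite strand had 8.31, 7.5 and 13.7 CPM in wild type and 30.9, 33.9 and 39.3 in carriers (log2 fold change 1.85, adjusted p = 5.47e-05). Adamts9 on its own strand rose by 1.40 (adjusted p = 2.91e-05), so these fragments can be those of Adamts9. Trim43c, of a tripartite-motif family with close copies, had 54.4, 62.9 and 50.4 opposite-strand CPM in wild type against 101, 117 and 147 in carriers, and its partner 9330159M07Rik rose by 0.84 (adjusted p = 0.000312).

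Tcf12, a basic helix-loop-helix transcription factor gene (chr9:71842688-72111871, minus strand), held 44.3, 38.2 and 43.7 opposite-strand CPM in wild type and 99.1, 134 and 151 in carriers (log2 fold change 1.62, SE 0.16, adjusted p = 6.51e-06). The partner was Rpl15-ps2, a processed pseudogene of 613 bases inside Tcf12, whose kit strand rose by 1.60. Fragments of near-identical ribosomal protein copies could be split among them by the counting, so the source of this signal is uncertain.

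Igf1, which encodes insulin-like growth factor, rose antisense without a partner that held the fragments. Its opposite strand (chr10:87858265-87937042, antisense to the plus strand) had 9.23, 19.6 and 18.1 CPM in wild type and 48.8, 64.4 and 82 in carriers. That is a log2 fold change of 2.05 (SE 0.21, adjusted p = 1.72e-05) with no overlap between the groups. The annotated antisense transcript Igf1os held only 48 kit-strand fragments over the 9 libraries, against 1304 opposite-strand fragments of Igf1. The kit strand of Igf1 had 25.2, 26.2 and 30.5 CPM in wild type and 26.5, 32.2 and 35.5 in carriers (adjusted p = 0.114), and the strands changed unequally (log2 ratio 1.84, adjusted p = 4.34e-05).

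Gorab, a Golgi protein gene of the golgin kind, gave a like picture at a lower level. Its opposite strand had 3.69, 2.14 and 7.07 CPM in wild type and 15.1, 20.1 and 26 in carriers (log2 fold change 2.29, adjusted p = 0.000191), while its kit strand changed by 0.13 (adjusted p = 0.397). The annotated partner, the small nuclear RNA gene Gm24940, held 2 fragments against 398 on the opposite strand of Gorab. The lincRNA Gm35154 had 0.923, 0.714 and 0 opposite-strand CPM in wild type and 5.43, 6.72 and 8.37 in carriers, a log2 fold change of 3.44 that rests on few wild-type fragments.

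Overlapped features that fell included a gene with hardly any antisense RNA in carriers. Hectd3, an E3 ubiquitin ligase gene (chr4:116995317-117005277, plus strand), had 58.8, 63.9 and 64.5 opposite-strand CPM in wild type. Heterozygotes had 1.86, 2.38 and 1.39, and homozygotes had 0.364, 0.787 and 2.38. Both genotypes were far under wild type, with a log2 fold change of -5.36 (SE 0.25, adjusted p = 1.86e-09). The kit strand of Hectd3 did not pass (log2 fold change -0.16, adjusted p = 0.332), and the ratio of its strands fell by 5.25 (adjusted p = 9.53e-09).

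The annotated partner, the antisense gene 1700021J08Rik, spans 847 bases inside Hectd3 and fell by 7.04 on its own kit strand (adjusted p = 3.44e-07), from 4.53, 5.61 and 5.14 CPM to at most 0.134. It held 419 kit-strand fragments, fewer than the 544 opposite-strand fragments of Hectd3, so not all antisense fragments of Hectd3 were counted for it. The strand opposite to 1700021J08Rik is that of Hectd3, and there it had 36.9, 28.9 and 26.1 opposite-strand CPM in wild type and 27.4, 32 and 37 in carriers. The groups overlapped (log2 fold change 0.06, adjusted p = 0.855, with the sign turned to -0.023 under kit-strand library sizes).

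Zmynd8, which encodes a reader of chromatin marks, lost most of its antisense RNA without its annotated partner doing so. Its opposite strand fell from 84.6, 92.2 and 88.8 CPM in wild type to 8.84, 13.3 and 15.9 in carriers (log2 fold change -2.82, SE 0.18, adjusted p = 7.38e-08). The partner BC046401 held 151 fragments against 955 on the opposite strand of Zmynd8, and its kit-strand change of -0.53 did not pass (adjusted p = 0.307). The kit strand of Zmynd8 fell by 0.86, less than its opposite strand.

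For 3 antisense genes the opposite strand, which is the strand of the coding gene across from them, fell together with that gene. Gm11457, annotated antisense to Dnttip1, a subunit gene of a histone deacetylase complex, had 733, 524 and 547 opposite-strand CPM in wild type and 165, 185 and 216 in carriers (log2 fold change -1.69, adjusted p = 3.93e-07). Dnttip1 on its own strand fell by 1.51, from 80.4, 59.3 and 61.7 CPM to 21.2, 23.6 and 26.7. Sardhos lies within Sardh, which encodes mitochondrial sarcosine dehydrogenase, and its opposite strand fell from 88.3, 80.4 and 91.5 CPM to 19.9, 24 and 32.6 while Sardh fell by 1.94. Gm13257 overlaps Tent5b, a noncanonical poly(A) polymerase gene, and fell from 36, 27.5 and 30 CPM to 2.91, 3.14 and 8.48, with Tent5b falling by 1.96. In all 3 pairs the carriers lay under every wild-type library. On their own kit strand Gm11457 (0.25, adjusted p = 0.458) and Gm13257 (-0.30, adjusted p = 0.469) did not pass the test, and Sardhos was not tested there.

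Gm44756 overlaps the tissue kallikrein gene Klk1b8. Its opposite strand stood at 255, 359 and 378 CPM in wild type and 69.6, 96.8 and 123 in carriers (log2 fold change -1.77, adjusted p = 5.15e-06), a smaller change than that of Klk1b8 itself, -5.70 (adjusted p = 3.89e-09). Kallikrein genes are a family of near-identical copies on this chromosome, so the assignment of fragments among them is uncertain. In Fhl2, a LIM domain gene, and Crot, which encodes a peroxisomal carnitine acyltransferase, the partners were the processed pseudogenes Gm8210 and Gm15610. Fhl2 went from 93.8, 68.2 and 55.2 opposite-strand CPM to 5.9, 8.71 and 11.9 and Crot from 37.5, 30.4 and 34 to 5.51, 7.89 and 10.2, while the pseudogenes fell by 6.39 and 2.42 on their own strand. Copies elsewhere in the genome could share these fragments, and the kit strands of Fhl2 (0.38, adjusted p = 0.0645) and Crot (0.18, adjusted p = 0.152) did not pass.

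**Figure D2:**
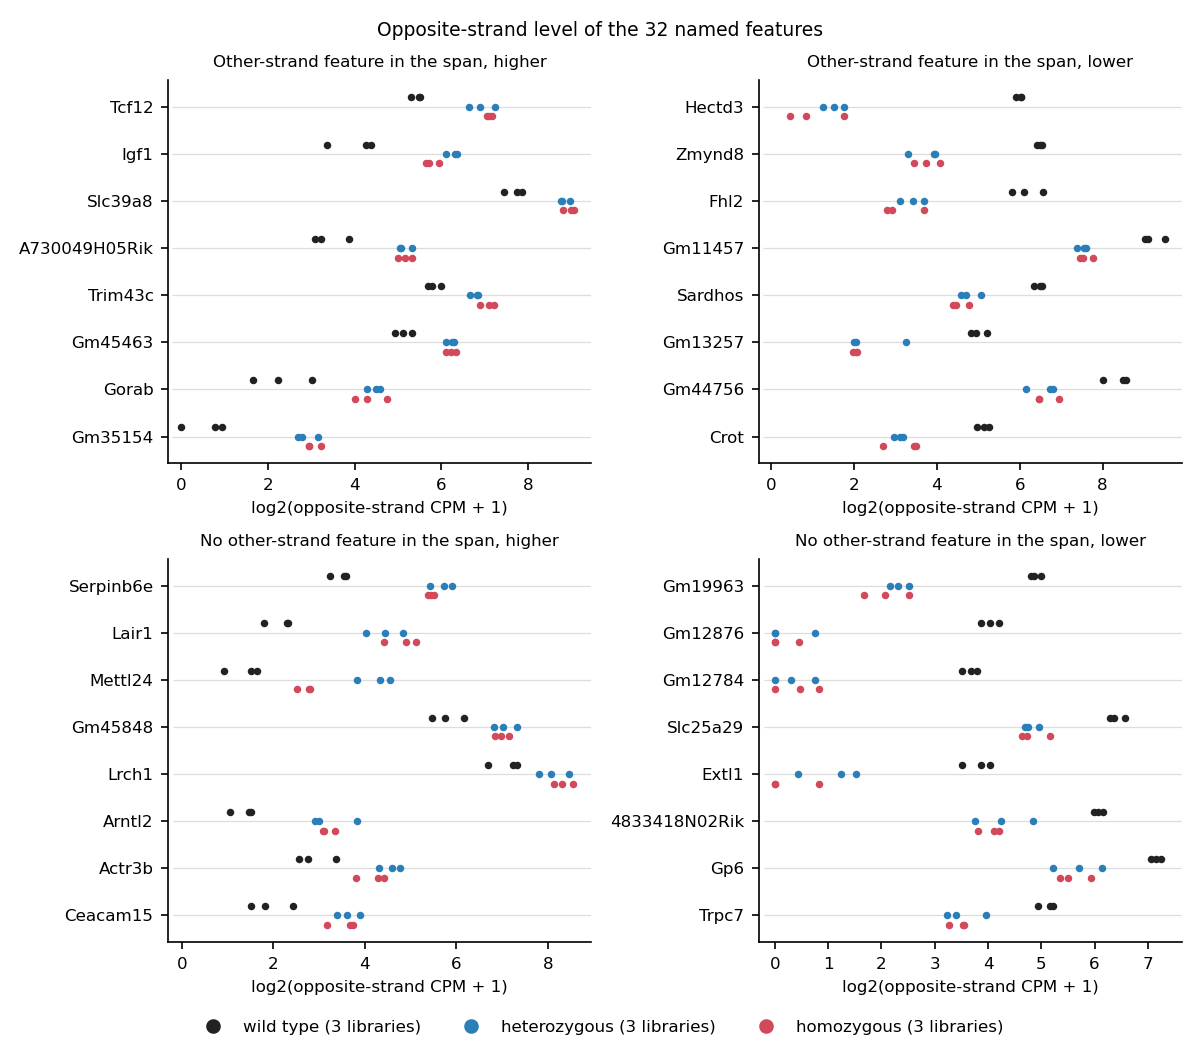
Opposite-strand level of the 32 named features on a log2(CPM + 1) scale, 1 point a library, with wild type, heterozygous and homozygous libraries in separate colours. For every feature the 6 carriers lie on one side of the 3 wild-type libraries, a property by which the features were chosen. Hectd3 falls from between 58.8 and 64.5 CPM to at most 2.38, and Igf1 rises from at most 19.6 to at least 48.8.

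Several genes without any annotated feature across from them carried mostly antisense RNA, and this rose in carriers. Serpinb6e, of the clade B serine protease inhibitors (chr13:33832345-33843408, minus strand), had 99.6% of its fragments on the opposite strand. It stood at 11.1, 10.7 and 8.39 opposite-strand CPM in wild type and at 40.5, 43.8 and 58.6 in carriers (log2 fold change 2.20, SE 0.19, adjusted p = 2.92e-06). Gm45848, a lincRNA with 99.7% of its fragments antisense, rose from 43.4, 71.4 and 53 to 112, 126 and 161 CPM (log2 fold change 1.22). For Serpinb6e and Gm45848, the annotated strand itself held next to nothing. The gene Gm9495 ends 2747 bases from Gm45848 on the other strand, pointing towards it. On its own strand Gm9495 rose by 1.22 (adjusted p = 0.000163), and whether the fragments over Gm45848 belong to it was not tested. Ceacam15, of the carcinoembryonic antigen family of adhesion proteins, had 1.85, 2.5 and 4.42 opposite-strand CPM in wild type and 8.01, 11.5 and 13.9 in carriers (log2 fold change 1.96, adjusted p = 0.000993).

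Lair1, an inhibitory receptor gene of leukocytes that binds collagen, had RNA on both strands. Its opposite strand rose from 2.46, 3.93 and 3.98 CPM in wild type to 15.3, 24.1 and 33.9 in carriers (log2 fold change 2.82, SE 0.30, adjusted p = 1.82e-05). Its kit strand moved from 3.23, 3.69 and 2.68 to 3.84, 4.1 and 4.55 CPM and did not pass (adjusted p = 0.0684), and the ratio of its strands rose by 2.45. Of the 8 macrophage markers measured on the kit strand 1 was higher and 1 lower, and their summed level was 139 to 159 CPM in wild type and 128 to 167 in carriers, so the groups overlapped. The part of leukocytes in the change of Lair1 was not tested.

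Mettl24, a methyltransferase-like gene, stood higher in every heterozygote than in any homozygote. Its opposite strand had 1.85, 2.14 and 0.884 CPM in wild type, 22.3, 19 and 13.2 in the heterozygous libraries and 4.73, 5.9 and 5.96 in the homozygous libraries. The log2 fold change was 3.42 in heterozygotes and 1.69 in homozygotes, and no feature passed the test between these genotypes. Arntl2, a paralogue of the circadian clock gene Bmal1, had 1.85, 1.07 and 1.77 CPM in wild type against 6.52, 7.56 and 13.2 in carriers. Actr3b, an actin-related protein gene, had 4.92, 9.29 and 5.74 against 13.1, 19.6 and 26.1. Both were low in every library, with log2 fold changes of 2.40 and 1.57.

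Lrch1 had the most antisense fragments of these 8 genes, 6422 over the 9 libraries. It stood at 103, 151 and 160 opposite-strand CPM in wild type and 224, 299 and 375 in carriers (log2 fold change 1.14, adjusted p = 0.000535). The gene Esd, which encodes an esterase, ends 3909 bases from it on the other strand, pointing towards it, and rose by 0.27 on its own strand (adjusted p = 0.0388). The counts do not say where in Lrch1 the fragments lay.

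Among genes whose antisense RNA fell without an overlapping partner, 1 lay at a divergent start site. The noncoding gene 4833418N02Rik (chr17:87274886-87282814, minus strand) starts 72 bases from Ttc7, a gene for a scaffold of phosphatidylinositol kinase complexes that runs the other way. Antisense fragments over 4833418N02Rik therefore run in the direction of Ttc7 but lie upstream of it. They stood at 62.1, 70.7 and 65.8 opposite-strand CPM in wild type and at 12.5, 16.9 and 27.8 in carriers (log2 fold change -1.93, SE 0.20, adjusted p = 1.14e-05). The kit strand of 4833418N02Rik did not pass (-0.28, adjusted p = 0.174), the ratio of its strands fell by 1.66 (adjusted p = 8.6e-05), and Ttc7 fell by 0.74 (adjusted p = 0.0161), from 98.4, 93.5 and 100 CPM to 30, 61.3 and 74.1.

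The stretch upstream of Ttc7 is shown because it ends at the start of Ttc7 and holds that of 4833418N02Rik, within which most of the stretch lies. It is the 250 bases before the start of Ttc7 in RefSeq, chr17:87282636-87282885 on the plus strand of GRCm38.p6, with the 71 bases between both start sites in capitals. None of the motifs searched on both strands, TGACGTCA (cyclic AMP response element), CACGTG (E-box), CCAAT and TATAAA, occurs in it.
Ttc7: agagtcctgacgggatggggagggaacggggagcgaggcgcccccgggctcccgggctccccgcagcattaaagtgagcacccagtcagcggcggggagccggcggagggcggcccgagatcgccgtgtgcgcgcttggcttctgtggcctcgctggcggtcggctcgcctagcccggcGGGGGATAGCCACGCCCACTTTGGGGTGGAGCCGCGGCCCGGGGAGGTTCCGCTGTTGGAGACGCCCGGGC

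Of all 32851 RefSeq windows of this kind, 1.55% hold TGACGTCA, 6.02% CACGTG, 33.8% CCAAT and 12.4% TATAAA. Of the 32 named features 24 had such a window, and 0, 0, 7 and 2 of these held the motifs in the same order. A match is a description of letters only, and no match says nothing of the factor.

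Gm19963, a processed pseudogene, fell from 28, 27.1 and 30.9 opposite-strand CPM to 2.18, 3.71 and 4.75, and the pseudogene Gm12876 fell from 15.4, 17.5 and 13.7 to at most 0.695, with 4 of 6 carriers at 0. Copies of both may share fragments. Gp6, the platelet receptor gene for collagen, had 98% of its fragments antisense and fell from 150, 141 and 133 to 36.1, 47.7 and 69.1 CPM (log2 fold change -1.49, adjusted p = 4.77e-05). Slc25a29, a mitochondrial carrier gene for basic amino acids, fell on both strands, by 1.61 on the opposite strand and by 1.51 on its own. Its opposite strand had 76.9, 81.8 and 94.1 CPM in wild type and 24, 25.6 and 35 in carriers.

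Trpc7, a cation channel gene, fell from 29.8, 34.6 and 36.2 opposite-strand CPM to 8.34, 10 and 14.7 (log2 fold change -1.67). Extl1, of the exostosin glycosyltransferase family, fell from 10.5, 13.6 and 15.5 to 0, 0.567 and 1.86, and the lincRNA Gm12784 from 10.5, 11.8 and 12.8 to 0, 0.315 and 0.787. Their groups were far apart, but the carrier levels of Extl1 and Gm12784 rest on 15 and 6 fragments in all.

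Where an annotated partner held at least as many fragments as the feature's opposite strand, the change could be set beside the partner's own. Over the 4949 overlapped features of this kind, the opposite-strand log2 fold change had a Pearson correlation of 0.648 with the partner's kit-strand change and of 0.269, over 3606 of them, with the change of the feature's own kit strand. This correlation is across features, and opposite-strand fragments of a feature and kit-strand fragments of its partner are in part the same fragments counted in both settings, so it is a description. The median absolute difference between feature and partner was 0.21. Both passed in 688 pairs, and in 670 of them the signs were the same.

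**Figure D3:**
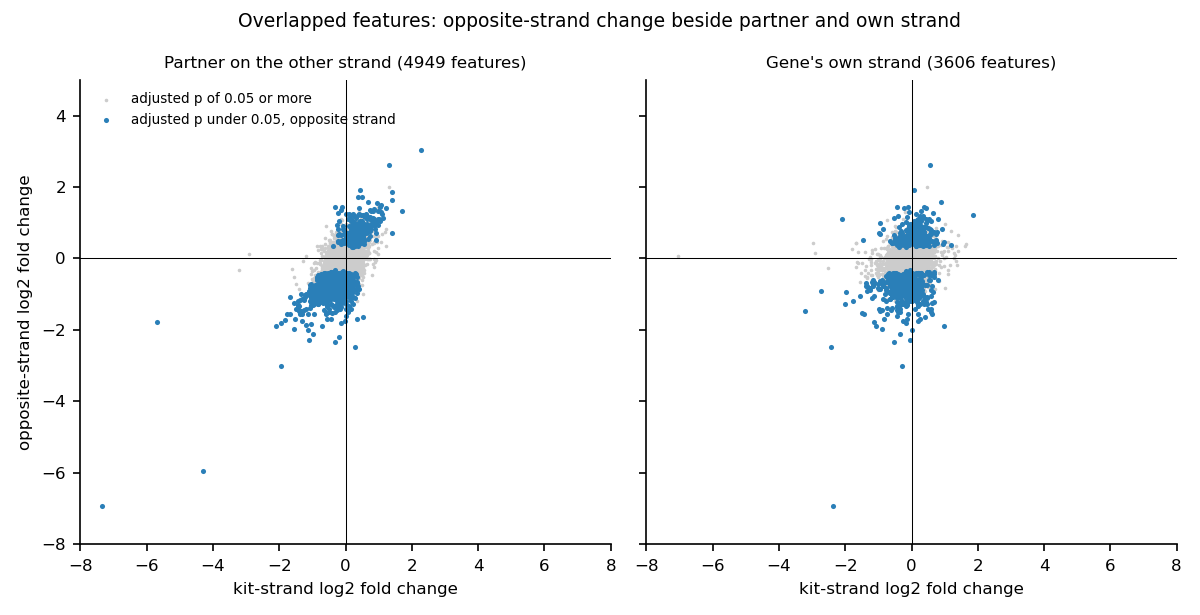
Log2 fold change of the opposite strand of overlapped features (vertical axis) against the kit-strand change of the partner on the other strand (left, 4949 features) and of the feature itself (right, 3606 features), carriers against wild type. Points in blue passed on the opposite strand. The points lie closer to a rising line on the left (Pearson 0.648) than on the right (0.269).

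Features with abundant opposite-strand counts included genes across from noncoding RNAs. Gm42418, a noncoding RNA gene, lies wholly within the span of the ribosomal RNA gene CT010467.1 and had 564417 opposite-strand fragments over the 9 libraries. It stood at 42687, 13442 and 17468 CPM in wild type and 8171, 16185 and 33841 in carriers, with groups that overlapped (log2 fold change -0.39, adjusted p = 0.531), and CT010467.1 on its own strand did not pass either (-0.74, adjusted p = 0.242). Copies of ribosomal RNA genes share reads, so both values are uncertain. Ccdc107, a coiled-coil gene, overlaps Rmrp, the RNA of the RNase MRP enzyme, by 159 bases, and its opposite strand had 64089, 38558 and 33357 CPM in wild type and 10801, 16200 and 29776 in carriers. That is a log2 fold change of -1.33 (adjusted p = 0.00188), beside -1.40 for Rmrp (adjusted p = 0.00325). The wild-type libraries differed widely among themselves. Fam234b, which overlaps the germ cell gene Gsg1, fell by 0.81 (adjusted p = 0.00693) and Gsg1 by 0.91, and Glod4, which overlaps the spermatid gene Dbil5, fell by 0.79 (adjusted p = 0.00269) and Dbil5 by 0.88. Lars2, a mitochondrial leucyl-tRNA synthetase gene, is isolated and had 98.5% of its fragments antisense. It stood at 11151, 3024 and 4032 opposite-strand CPM in wild type and 2958, 4046 and 9981 in carriers, so the groups overlapped (adjusted p = 0.526). Lars2 and Gm42418 both had their highest count in wild-type library 1, 36253 and 138776 fragments. Whether reads of ribosomal RNA copies are among the fragments of Lars2 was not tested, so its values are uncertain too.

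Of the 10327 features tested on both strands, 1642 passed on the opposite strand, 3446 on the kit strand and 615 on both. In 472 of the 615 both strands moved the same way. In 143 they moved in opposite directions. The test of the ratio of the strands uses the same counts, so that all 143 passed it follows largely from how they were picked. Of all features tested on both strands 1390 passed it (13.5%), 656 with a rise of the opposite strand against the kit strand (6.35%) and 734 with a fall (7.11%). Of the 1027 features that passed on the opposite strand only, 514 passed the test of the ratio.

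The 143 fell into unequal sets. In 99 the opposite strand was lower and the kit strand higher in carriers, with median log2 fold changes of -0.88 and 0.36 and a median antisense share of 5.46%. In 69 of these 99 the share was under 10%. In the other 44 the opposite strand was higher and the kit strand lower, with medians of 0.82 and -0.51 and a median share of 23.5%.

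The pair Gm45463 and Ces1a moved as a mirror. Ces1a encodes a carboxylesterase, an enzyme that hydrolyses esters (chr8:93020214-93048192, minus strand), and the noncoding Gm45463 (chr8:93011619-93041516, plus strand) shares 71.3% of its span with it. On its own strand Ces1a rose from 2.99, 4.21 and 3.68 CPM in wild type to 6.62, 7.1 and 7.58 in carriers (log2 fold change 0.97, adjusted p = 0.000609). Its opposite strand fell from 62.1, 59.3 and 70.7 to 13.7, 14.4 and 24.4 (-1.90, SE 0.20, adjusted p = 1.42e-05). Gm45463 was the image of this, since each strand of one is the other strand of its partner: its kit strand fell from 6.93, 6.83 and 7.82 CPM to 1.38, 1.43 and 2.17 (-2.11, adjusted p = 1.79e-05) and its opposite strand rose from 29.5, 38.9 and 33.6 to 68, 74.1 and 80.3 (1.11, adjusted p = 0.000186). No carrier overlapped wild type on either strand of either feature. Ces1 genes lie side by side as near-identical copies, so the assignment of these fragments is uncertain.

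The 250 bases before the RefSeq start of Ces1a are shown because the start of the minus-strand transcript, the one that rose, lies outside Gm45463. They are chr8:93048193-93048442 of GRCm38.p6, written along the minus strand, and the capitals mark the only match among the 4 motifs, a CCAAT box.
Ces1a: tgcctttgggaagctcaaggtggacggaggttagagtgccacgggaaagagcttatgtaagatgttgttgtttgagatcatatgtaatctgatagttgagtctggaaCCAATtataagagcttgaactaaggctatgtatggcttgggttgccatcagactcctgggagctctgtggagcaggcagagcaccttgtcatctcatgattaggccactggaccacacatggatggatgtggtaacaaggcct

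Grm7, a metabotropic glutamate receptor gene, also moved apart on its strands, with a log2 ratio of -3.49. Its opposite strand had 30.1, 50.7 and 55.7 CPM in wild type and 10.2, 13.9 and 20.5 in carriers, and its kit strand had 9.09, 10.3 and 12.7 in wild type and 26, 36.1 and 79.8 in carriers. Mios, a subunit gene of the GATOR complex that controls mTOR signalling, had 31.7, 20 and 28.3 opposite-strand CPM in wild type and 3.39, 5.06 and 6.19 in carriers (log2 fold change -2.41, adjusted p = 3.72e-06), while its kit strand rose by 0.41 (adjusted p = 0.00269). Senp6, a protease gene for the SUMO modifier, fell by 1.23 antisense and rose by 0.54 on its own strand, and Dctn6, a dynactin subunit gene, fell by 2.01 and rose by 0.56. In each of these 4 genes the groups did not overlap on either strand.

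Meioc, a regulator of the meiotic programme, was among these genes and among the markers of early meiotic prophase. Its opposite strand fell from 86.1, 70 and 79.1 CPM to 37.2, 50.2 and 52.4 (log2 fold change -0.71, adjusted p = 0.00459), while its kit strand rose from 290, 264 and 274 to 325, 396 and 427 (0.49, adjusted p = 0.00218). Of the 11 markers of this stage 10 were higher on the kit strand, with a summed level of 1686 to 1788 CPM in wild type and 2169 to 2692 in carriers, and on the opposite strand 0 of 7 tested were higher and 1, Meioc, was lower. Of all features tested 14.1% were higher on the kit strand.

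**Figure D4:**
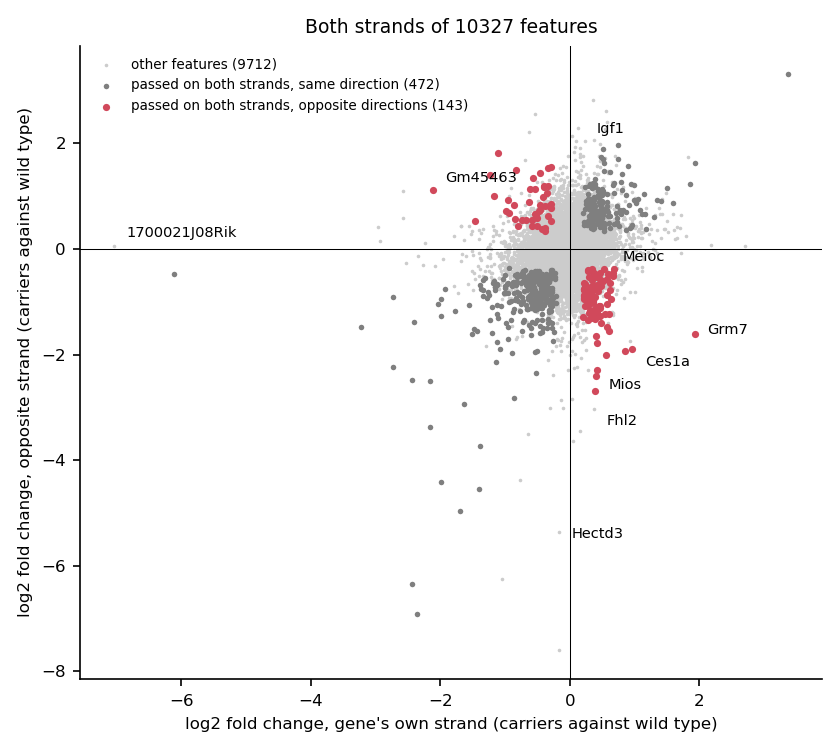
Log2 fold change of the opposite strand (vertical axis) against that of the gene's own strand (horizontal axis) for the features tested on both, carriers against wild type. Red points passed on both strands in opposite directions (143), dark grey points passed on both in the same direction (472). Ces1a and Grm7 lie at the lower right, Gm45463 at the upper left, and Hectd3 far down near a kit-strand change of 0.

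Antisense RNA fell most in carriers at 23 of the 493 features, those with a log2 fold change of -3 or lower (0.187% of all tested). They are called nearly lost, though Fhl2 kept 162 opposite-strand fragments over the carriers, 1700003N22Rik 147 and Gm13257 71. The part of background alleles in these changes was not tested. Of these 23 features 7 lay on chromosome 4 and 6 on chromosome 7, which held 736 and 980 of the 12303 tested features. Of the tested features there, 5.84% and 6.33% were among the 493, against 4.01% over all chromosomes. The kit strand was above its average there too. On it 4.80% and 5.59% of the features tested on chromosomes 4 and 7 passed and changed at least 2-fold, against 3.68% over all. In 3 of the 23 features no carrier library held an opposite-strand fragment. Gm36694 had 14.5, 7.86 and 13.7 CPM in wild type, which makes the carriers at least 71.7-fold lower when the 6 of them together are set at a floor of 3 counts. Gm10037 had 5.54, 13.6 and 5.74 (at least 49.5-fold lower by the same floor), and Gm11413 had 5.23, 5.36 and 4.86 (at least 30.8-fold lower). At these levels no fold beyond the floor is detectable.

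Tubb6, a beta-tubulin gene (chr18:67390717-67402748, plus strand), starts 306 kb beyond the plus-strand precursor of the knocked-out locus. Its opposite strand had 25.2, 26.1 and 34.5 CPM in wild type, while heterozygotes had 1.63, 2.04 and 1.74 and homozygotes 0.728, 1.18 and 0.397 (log2 fold change -4.55, SE 0.26, adjusted p = 2.54e-08). Its own strand also fell, by 1.40, from 21.9, 22.3 and 22 to 7.37, 8.28 and 9.35 CPM. Both strands of every carrier lay under wild type.

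Asf1b, which encodes a histone chaperone, and Copb1, which encodes the beta subunit of the COPI vesicle coat, fell antisense while their own strand did not pass the test. Asf1b went from 23.1, 11.8 and 16.8 opposite-strand CPM to 0.931, 1.37 and 1.97 (log2 fold change -3.64, adjusted p = 1.84e-06), with a kit-strand change of 0.047 (adjusted p = 0.722). Copb1 went from 13.2, 18.6 and 15 to 0.679, 1.22 and 3.15 (-3.44, adjusted p = 5.15e-06), with 0.16 on the kit strand (adjusted p = 0.133). The strand ratio passed in both, at -3.69 and -3.63. These antisense fragments were 1.08% of all fragments of Asf1b and 0.503% of those of Copb1, shares within the range of isolated genes.

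Members of gene families stood among the nearly lost features, and their counts may be shared with copies: Skint4 and Skint6, of an epithelial immunoglobulin-like family, the pheromone receptor gene Vmn2r71, and H2-K1, a major histocompatibility gene. H2-K1 had 4.92, 5.72 and 5.3 opposite-strand CPM in wild type, 0 in all 3 heterozygotes and 0, 1.57 and 0.397 in homozygotes. Its kit strand had 29.6, 29.3 and 30.9 CPM in wild type, against 5.58, 7.11 and 5.81 in the heterozygous and 5.63, 29.3 and 6.54 in the homozygous libraries, so homozygous library 2 stood at the wild-type level on the kit strand. Tyr, which encodes the pigment enzyme tyrosinase, had 5.23, 5 and 14.1 opposite-strand CPM in wild type, and 5 of 6 carriers were at 0.

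Homozygous library 1 stood apart from the other carriers in 1700003N22Rik and Ltk. The processed pseudogene 1700003N22Rik had 79.7, 65.4 and 70.2 opposite-strand CPM in wild type, 53.5 in homozygous library 1 and 0 in the other 5 carriers. Ltk, a receptor tyrosine kinase gene, had 16.6, 9.29 and 12.8 in wild type, 8.37 in homozygous library 1 and 0.698 or less in the others. On the kit strand of Ltk the same library stood apart, with 2.37, 2.33 and 2.91 CPM in wild type, 2.48 in homozygous library 1 and 0.14 to 0.401 in the others.

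**Figure D5:**
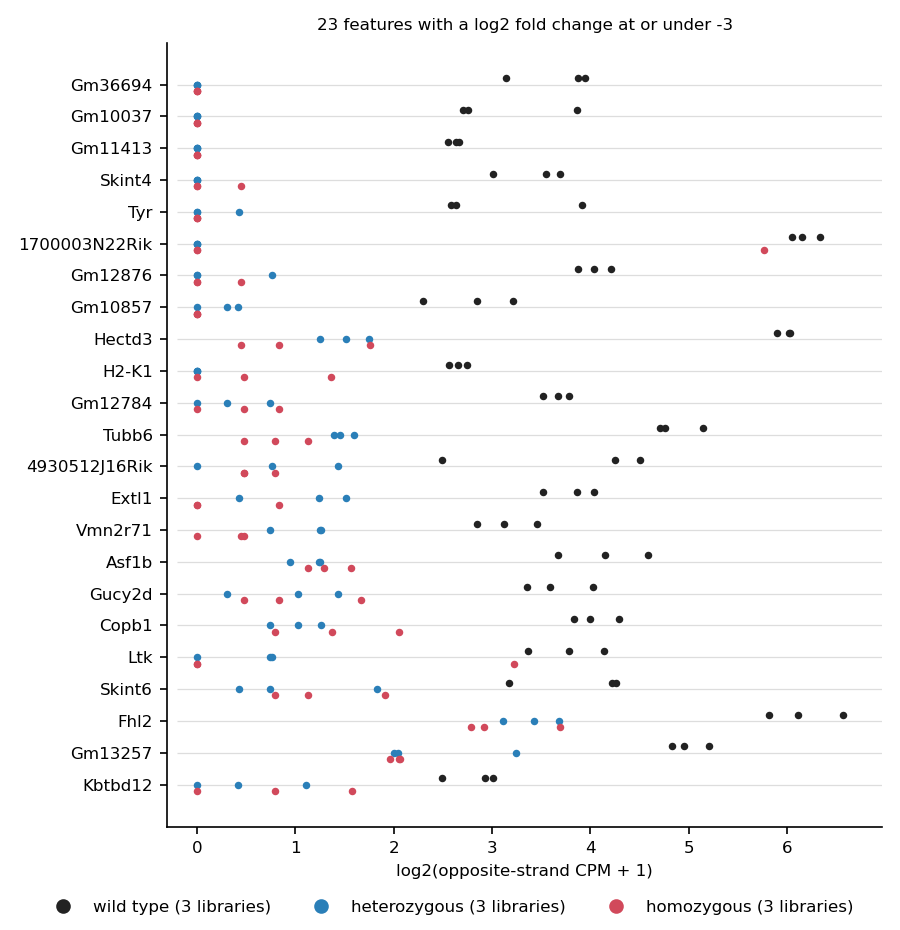
Opposite-strand level of the 23 features with a log2 fold change of -3 or lower on a log2(CPM + 1) scale, 1 point a library, ordered by fold change. Wild-type points lie to the right of the carriers. Many carriers lie near 0, but not those of every feature, since Fhl2 kept 162 fragments and Gm13257 71 over the carriers. The lone homozygous points are 1700003N22Rik (53.5 CPM) and Ltk (8.37 CPM) of homozygous library 1.

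Genes with a named antisense transcript were looked at as a list. Symbols that end in os name opposite-strand transcripts. The list held 294 of them and 297 pairs of such a transcript and its host gene, 242 with overlapping spans. A few pairs, those of Nkx2-2os, Dlx6os1 and Tmem147os, are counted more than once in both numbers of pairs or in the first. Of 172 host genes tested on the opposite strand 10 were higher and 18 lower, with a median log2 fold change of -0.0097 beside 0.018 over all features. Of 161 opposite-strand transcripts tested on theirs, 20 were higher and 11 lower, with a median of 0.033. Over all features tested 6.71% were higher and 9.27% lower, and neither list was tested against them. Cdk19, a kinase gene of the Mediator complex, fell antisense from 190, 175 and 179 CPM to 91.5, 98.5 and 120 (log2 fold change -0.82, adjusted p = 0.000457), and its partner Cdk19os fell by 1.01. Cdipt, which encodes phosphatidylinositol synthase, fell from 25.2, 28.6 and 26.5 to 9.14, 11.1 and 14.2 (-1.20), and Cdiptos by 0.71. Zfp652, a zinc finger gene, fell from 214, 152 and 171 to 53.5, 69 and 92 (-1.38, adjusted p = 8.02e-05).

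Well-known antisense pairs, among them the imprinted ones, had 11 tested features, 3 of them higher and 0 lower, with a median of 0.20. This list was not tested against all features, of which 6.71% were higher and 9.27% lower. Igf2r, overlapped by the imprinting RNA Airn, had 12.3, 15.7 and 12.4 opposite-strand CPM in wild type and 20, 22.7 and 34.2 in carriers (log2 fold change 0.85, adjusted p = 0.0115), and Airn rose by 0.65 on its own strand. Kcnq1, overlapped by Kcnq1ot1, had 677, 937 and 820 in wild type and 978, 1110 and 1259 in carriers (0.45, adjusted p = 0.0193), with Kcnq1ot1 at 0.43. Snhg14, which lies antisense to Ube3a, had 263, 310 and 339 in wild type and 369, 434 and 460 in carriers (0.47, adjusted p = 0.0173). The groups did not overlap in these 3 genes, but each lost its call without wild-type library 1, at adjusted p = 0.0668, 0.112 and 0.102 for Igf2r, Kcnq1 and Snhg14. Kcnq1 also missed the threshold without wild-type library 3 (adjusted p = 0.0640) and with kit-strand library sizes (adjusted p = 0.0513), and Snhg14 without wild-type library 2 (adjusted p = 0.0572).

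Of the 466 annotated piRNA precursors 378 had no opposite-strand fragment, 32 were tested, and 3 were higher (9.38%) and 0 lower. Over all features tested 6.71% were higher and 9.27% lower, and the list was not tested against them. The precursor 9_qF4_150_2 had 154, 170 and 164 opposite-strand CPM in wild type and 207, 263 and 302 in carriers (log2 fold change 0.65, adjusted p = 0.00357), and its partner Topaz1, a germ cell gene, rose by 0.50. The precursors pi_Zyg11a_1 (0.94, adjusted p = 0.00868) and 7_qD1_9417_1 (0.97, adjusted p = 0.0385) were the others. The former missed the threshold without wild-type library 2 (adjusted p = 0.0551), and the latter in 8 of the 16 alternative settings. Both precursors of the chromosome 18 locus held too little opposite-strand RNA to test, 41 fragments on the minus-strand and 6 on the plus-strand precursor over the 9 libraries.

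Gm9, Tmem184c, Map7d3, 4933431M02Rik and Lcn2, looked at by name, also held too few opposite-strand fragments to test, with shares of 0.127 to 0.479%. Gm26561, a long noncoding gene with 88.4% of its fragments antisense, changed by 0.13 (adjusted p = 0.539). Golga2, the gene of the Golgi matrix golgin GM130, changed by 0.027 on the opposite strand (adjusted p = 0.894, with the sign turned to -0.057 under kit-strand library sizes), and its partner Swi5 did not pass.

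Markers of testis cell types were counted on both strands, with fewer of them tested on the opposite strand, and the difference of these counts was not tested. Over all features tested 16.5% were lower on the kit strand and 30.7% passed in either direction, against 9.27% and 16% on the opposite strand. Of Leydig cell markers 9 of 11 were lower on the kit strand, with a summed level of 1319 to 1450 CPM in wild type and 544 to 764 in carriers, and 1 of 5 was lower on the opposite strand, at 68.3 to 72.5 and 71.1 to 79.5 opposite-strand CPM. Of elongating spermatid markers 9 of 12 were lower on the kit strand and 0 of 12 passed on the opposite strand with edgeR or DESeq2 (0 at an unadjusted p under 0.05), where the sums were 835 to 1082 CPM in wild type and 563 to 1162 in carriers. On the opposite strand 0 of 4 Sertoli cell, 7 round spermatid, 7 spermatogonial and 3 peritubular myoid markers passed with edgeR or DESeq2, and 0 had an unadjusted p under 0.05. Of 4 macrophage markers tested there 0 passed with either tool and 1 had an unadjusted p under 0.05. Pachytene spermatocyte markers gave 1 lower of 7, adipocyte markers 1 lower of 2, and no epididymis marker could be tested. Of the red blood cell markers 1 was tested, Alas2, a haem synthesis gene, and was higher (0.73, adjusted p = 0.0194), a call lost without wild-type library 1 (adjusted p = 0.126) or 3 (adjusted p = 0.0609). Its own kit strand fell by 0.98 (adjusted p = 0.0125), and Apex2, the gene across from it, rose by 0.58 (adjusted p = 0.0190). The part of cell composition in the opposite-strand changes was not tested.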

How the data were processed

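RNA-seq covered 9 mouse testis libraries. The values used are raw counts, not normalized, which the authors deposited once for each strand. Per the file headers, featureCounts 1.6.2 counted fragments with both ends properly mapped, over the full span of GENCODE genes (introns too) and piRNA precursors, and a fragment in more than 1 feature of the counted strand was dropped. The kit reports the reverse strand, so the forward setting gives antisense RNA. The submitters' processing notes name cutadapt 1.18, HISAT2 2.1.0 and SAMtools 1.9 and the mm10 build. An antisense fragment may come from RNA of the other strand or from imperfect strand marking.

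Features were filtered with filterByExpr, scaled by TMM on each strand and fitted with edgeR 4.0.16 (limma 3.58.1, R 4.3.3) as 3 group means over all 9 libraries. Adjusted p under 0.05 passed. The ratio of strands was tested as the strand by genotype term in a model with a term for each library. Tested on simulated data, the opposite-strand fit recovered 73 of 100 features changed 2-fold and 100 of 100 changed 4-fold, with 12 false calls among 12103. The strand ratio test recovered 52 and 99 of 100, with 7 false calls among 10127. The changed features were drawn only from the more abundant ones, so recovery at the lowest levels was not measured. Noise was drawn for each feature on its own, so library effects shared by many features were not simulated. Overlaps came from the coordinates in the headers, symbols for 49326 genes from a reference of names, and promoters from RefSeq (GRCm38.p6). Named features followed the rule given with the 493 features; the nearly lost, opposite-direction and most abundant features were chosen after their values were seen. Members, lists and rules were chosen with earlier results of these data known. Alternatives were DESeq2 1.42.0, other scalings and filters, a 2-fold limit, wild type against carriers as 1 group, each library left out and, chosen after seeing the data, the share without 3 abundant features. Precision rests on 2316563 to 4037905 opposite-strand fragments a library; floors cover counting error only. Small RNA libraries were left out.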

Additional observations from a re-analysis of the deposited data

Results flagged for a closer look

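In 8 of 83 groups of 6 carriers examined, 1 library lay far from the other 5 by its gap to the nearest. Chance alone gives such a gap in about 1 in 20 groups. That rate does not apply to Tyr, Skint4 and 1700003N22Rik, where the other 5 carriers were at 0 and the gap is the whole range by construction. Heterozygous library 2 was the highest carrier for Gm13257 (8.48 opposite-strand CPM, the others 2.91 to 3.18) and for 4833418N02Rik (27.8, the others 12.5 to 17.9). Heterozygous library 3 was the only carrier with a fragment of Tyr (0.347 CPM). Homozygous library 1 was the only one with a fragment of Skint4 (0.364 CPM), the only one with 1700003N22Rik (53.5 CPM), and far above the others for Ltk (8.37, the others at most 0.698). Homozygous library 2 was the highest for H2-K1 (1.57, the others at most 0.397) and Copb1 (3.15, the others 0.679 to 1.59). All these features were under wild type in every carrier, a property by which they had been chosen.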

How the results depend on the processing

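Counts of calls moved with the libraries and with a 2-fold limit. With each library left out in turn, the 1966 carrier calls ranged from 817 to 2315, the 1250 heterozygous calls from 439 to 1459, the 1193 homozygous calls from 338 to 1512, the 0 calls between homozygotes and heterozygotes from 0 to 4, the 6377 kit-strand calls from 4153 to 6426 and the 1390 ratio calls from 620 to 1556; for the carrier, heterozygous and ratio calls the lowest came when wild-type library 1 was left out, and for the homozygous calls it was homozygous library 2. A 2-fold limit left 585, 499, 534 and, on the kit strand, 765 calls, and no filter on low counts gave 35 calls between homozygotes and heterozygotes. The share difference of -0.715 points ranged from -0.895 to -0.591, missed the threshold when wild-type library 2 (-0.646, exact permutation p = 0.0714) or 3 (-0.604, p = 0.107) was left out, was -0.00999 (p = 0.940) without overlapped features, and was -0.459 (p = 0.143) without Ccdc107, Gm42418 and Lars2, an alternative chosen after seeing the data. The difference in isolated genes, 0.00130 points, ranged from -0.0105 to 0.0180 with a library left out and was -0.0202 with at least 200 fragments a gene. With at least 50% of the span covered, 24.5% of the calls were overlapped in place of 72.1%, and with a share of at least 25% there were 1240 candidates in place of 1866. The unscaled fit moved the median of all features to 0.14 and kit-strand library sizes to -0.07. The sign turned for 1700021J08Rik (-0.023 with kit-strand library sizes, and from -0.037 to 0.22 with a library left out) and Golga2 (-0.057, and from -0.0034 to 0.066). Ltk did not pass with DESeq2 (adjusted p = 0.132). The cause of these changes was not tested. No paired analysis was possible because the labels number the libraries on through the groups, and the numbers 1 to 3 used here follow sample order and name a library only. At these depths a 2-fold change of a feature is missed in part, as the simulated data show.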

Other observations

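Mitochondrial mRNA genes lie on both strands of a small circular genome, so their opposite strand is the other mitochondrial transcript. Of the 13 such genes 7 were tested on the opposite strand, with 0 higher and 1 lower, beside 6.71% higher and 9.27% lower over all features tested. The one that fell was mt-Nd5, a subunit gene of respiratory complex I, from 189, 142 and 120 opposite-strand CPM in wild type to 97.6, 106 and 138 in carriers (log2 fold change -0.45, adjusted p = 0.0415), with groups that overlapped, while its kit strand rose by 0.47 (adjusted p = 0.00299). Mitochondrial features of any type numbered 17 on the opposite strand, with 5 higher and 2 lower (41.2%), beside 16% that passed over all features tested. Of 45 ribosomal protein genes tested on the opposite strand 1 was higher and 4 were lower, beside 11 higher and 29 lower of 80 on the kit strand, where 14.1% of all features tested were higher and 16.5% lower.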
